A study of Mus musculus with 10 samples.

Results

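Of the 32896 8-mers scored on these protein binding microarrays, each merged with its reverse complement, the A/T-only set holds 120 that differ from their reverse complement and 16 palindromes. These members, made of A and T alone, were taken by that rule, with no measured value used, and were grouped by their number of TpA steps (0 to 4) and by their longest run of A on either strand (1 to 8). None contains a cytosine, so M.SssI, the methyltransferase that was applied to part of the arrays and that modifies the cytosine of CG dinucleotides, cannot modify any of them.

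The series profiled GST-tagged DNA-binding domains of mouse bZIP proteins, made in a cell-free transcription and translation system, on double-stranded arrays read in the Cy5 channel. The 10 arrays fall into 5 groups of 2. Wild-type CREB1 was read on unmethylated DNA only, and the mutants CEBPB(V285A) and CREB1(A297V) both on unmethylated DNA and on DNA treated with M.SssI. CEBPB(V285A) has alanine in place of valine in its DNA-binding domain, and CREB1(A297V) has valine in place of alanine. Wild-type CEBPB and CREB1 on methylated DNA are not analysed here. All domains carry the GST tag and were tested without the rest of the protein, so the values describe isolated domains on naked DNA. Nothing in the labels says that the arrays of a group come from separate protein preparations, so p-values measure only the spread between these arrays, which may be technical.

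The bZIP proteins bind DNA as dimers in which each basic region lies in the major groove over a short half-site. CREB1 recognises the cAMP response element (CRE), CEBPB the C/EBP site, and relatives of the PAR family a site that differs from both in its half-sites. All of these palindromes have a CG in the centre. DNA of A and T alone is known for its shape rather than for bZIP sites: runs of A stiffen the helix and narrow its minor groove, whereas TpA is the most easily deformed dinucleotide step and recurs in the TATA box.

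The A/T-only 8-mer that the results turn on differs from the PAR site only in its central bases. The sites below are written in lower case with the centre in capitals, 5′ to 3′, because the proteins were told apart by this centre.
PAR site: ttaCGtaa
PAR site with CA centre: ttaCAtaa
PAR site with TA centre: ttaTAtaa
PAR site with AA centre: ttaAAtaa
PAR site with AT centre: ttaATtaa
CRE: tgaCGtca
C/EBP site: ttgCGcaa

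For contrast, 4 members stand for the classes of A run and TpA step. Each TpA step is in capitals.
Homopolymer: aaaaaaaa
A run followed by T run: aaaatttt
T run followed by A run: tttTAaaa
Alternating, T first: TATATATA

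Each 8-mer was read from all probes that hold it within a variable region of 35 bases. The members lay on 15 to 40 probes each (median 34), and the 16 palindromic members on at most 18. Together they occurred on 2236 of the 40330 probes (5.54%). Of these probes 48.8% held more than 1 member, up to 13, so members share probes and are not independent of each other. A CG stood elsewhere on 85.3% of them, and 54.8% held a bZIP half-site (TTAC, TGAC or TTGC, either strand). A probe with an A/T-only 8-mer can therefore be methylated and can carry another bZIP site. The probes of TTATATAA show this. The variable regions below are its strongest, middle and weakest probe by the signal of CEBPB(V285A) on unmethylated DNA, with the 8-mer in capitals.
Strongest: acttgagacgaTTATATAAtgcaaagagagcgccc
Middle: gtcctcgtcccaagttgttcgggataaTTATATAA
Weakest: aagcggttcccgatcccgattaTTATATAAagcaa
All 3 hold a CG, and the strongest and the weakest hold a half-site beside the 8-mer. With CEBPB(V285A) on unmethylated DNA the strongest probe gave 27.0 and 24.3 times the median of its neighbouring spots on the 2 arrays. The middle probe gave 2.81 and 1.97 times, and the weakest 0.992 and 1.11 times. With CREB1 the same probes gave 1.03 and 1.08 times, 1.28 and 1.20 times, and 0.780 and 0.690 times.

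Values are Z-scores: the log2 signal of an 8-mer relative to its neighbourhood, centred on the median of all 8-mers and divided by their spread within each array. They are given as mean ± SD over the 2 arrays of a group. Across the arrays the median signal was 345 to 1857 and its ratio to background 1.79 to 5.10, and the number of arrays limits the precision. On the unmethylated arrays of CREB1(A297V) the strongest 8-mer exceeded the median by only 2.79 and 2.68 log2 units, where the other 8 arrays reached 4.73 to 6.05. The array names carry an identifier whose meaning the labels do not give: the CREB1 and CREB1(A297V) unmethylated arrays share one, CEBPB(V285A) unmethylated has another, and both methylated groups share yet another. Protein and identifier cannot be told apart between CEBPB(V285A) and CREB1, nor methylation and identifier in either methylation comparison. The comparison of the mutants' methylation responses carries these identifier differences as well. The methylated CREB1(A297V) arrays also had another layout, with 0% of probes at the position they had on the first array, so layout and protein cannot be told apart between the methylated groups either.

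The members were signal-rich as a class with every protein. Without methylation, their median Z-score was 1.10 ± 0.117 (SD, n = 2) with CREB1, 1.43 ± 0.0142 with CEBPB(V285A) and 1.59 ± 0.102 with CREB1(A297V). After methylation it was 1.41 ± 0.143 with CEBPB(V285A), then 1.19 ± 0.100 with CREB1(A297V). In signal, the median member lay 1.13 to 1.29 times above the array median. The other 20213 8-mers without CG had medians between -0.031 and 0.0884. Between 119 and 134 members lay above 0 on each of the 10 arrays. On probes without CG, 78 members could be scored. Their median on unmethylated DNA was 0.378 ± 0.0688 with CREB1, 0.905 ± 0.040 with CEBPB(V285A) and 0.833 ± 0.195 with CREB1(A297V). On methylated DNA it was 1.28 ± 0.0263 with CEBPB(V285A) and 0.782 ± 0.0403 with CREB1(A297V). These scores are centred and scaled on the 8-mers of that subset, so their size cannot be compared with that over all probes.

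This level was the top of a gradient in base composition. Among 8-mers without CG, the median for CREB1 was 0.829 ± 0.162 with 1 G or C (1024 8-mers), 0.159 ± 0.0660 with 3 (5824 8-mers) and -0.641 ± 0.0253 with 5 (3168 8-mers). It reached -2.26 ± 0.0992 with 8, a class of 5 8-mers. The other groups followed the same order from 0 to 8 G or C, ending at -1.82 (CEBPB(V285A)) and -1.90 (CREB1(A297V)) without methylation and at -2.33 and -2.53 with it. Every class of A run or TpA step described below sits on this gradient.

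High binding was rare among the members, as it was among all 8-mers. A mean Z-score of at least 3 was reached by 4 members with CREB1. With CEBPB(V285A) 3 members reached it on unmethylated and 8 on methylated DNA, and with CREB1(A297V) 8 and 2. As shares of the members these are 2.94%, 2.21%, 5.88%, 5.88% and 1.47% in the same order, beside 2.69%, 3.50%, 3.28%, 1.68% and 2.90% of all 8-mers. Of the 8-mers without CG, members included, 0.835%, 1.70%, 2.38%, 1.78% and 2.72% reached it.

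TTATATAA, the PAR site with a TA centre, was the highest member with CEBPB(V285A), lay near the members' median or below it with CREB1(A297V), and was among the lowest members with CREB1. On unmethylated DNA its Z-scores were 7.30 and 6.02 with CEBPB(V285A), 0.301 and -0.520 with CREB1, and 1.06 and 1.43 with CREB1(A297V). On methylated DNA they were 10.2 and 8.62 with CEBPB(V285A) and 0.812 and 1.56 with CREB1(A297V). All 4 CEBPB(V285A) arrays lay above all 6 arrays of the CREB1 proteins, with no overlap. In signal, TTATATAA lay 2.56 times above the array median with CEBPB(V285A) on unmethylated DNA and 5.38 times on methylated DNA. It ranked first of the members in both groups, and 28 and 9 among all 8-mers without CG. The next member, ATATAATA, reached 3.38 ± 0.713 and 4.17 ± 0.0102. With CREB1, TTATATAA ranked 130 of the members. Its placement with the CREB1 proteins moved with the scoring. In the alternative scores that cover all members its rank was 97 to 130 with CREB1. With CREB1(A297V) it was 33 to 93 on unmethylated and 67 to 76 on methylated DNA. On probes without a half-site it ranked 33 of 134 members with CREB1(A297V) on methylated DNA.

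The difference between CEBPB(V285A) and CREB1 at TTATATAA was 6.77 ± 0.588 (SE; limma, adjusted p = 3.27e-06). Between the methylated groups CEBPB(V285A) exceeded CREB1(A297V) by 8.21 ± 0.588 (limma, adjusted p = 1.05e-07). CREB1(A297V) minus CREB1 was 1.36 ± 0.588 and was not called (limma, adjusted p = 0.116). An 8-mer is called here where its adjusted p, by Benjamini-Hochberg over all 32896 8-mers, is below 0.05. The first of these comparisons is confounded with the array identifier, and the other 2 lie within a single identifier. Between the methylated groups, protein and array layout cannot be told apart.

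The signal was spread over the probes of the 8-mer. More than 2 times their neighbourhood was reached by 11 and 10 of the 17 probes with CEBPB(V285A) on unmethylated DNA, where 12.2% and 10.6% of all probes did so. On methylated DNA it was 16 and 16 of 17, beside 15.7% and 15.8% of all probes. With the CREB1 proteins it was 0 or 1 of 17 on each array. On the 7 probes that hold no half-site, the Z-score was 8.53 and 6.61 on unmethylated and 14.5 and 10.6 on methylated DNA. Scores of this probe subset are centred and scaled on its own 8-mers, so their size cannot be compared with that over all probes. The part of neighbouring half-sites was not tested. In the authors' deposited scores, whose scale is not that of the Z-scores used here, TTATATAA stood at 22.1 and 14.5 and at 27.2 and 21.9.

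Several centres of the PAR site were compared. With CEBPB(V285A) on unmethylated DNA, the CG centre gave 25.5 ± 0.0367, CA gave 15.9 ± 0.256, TA gave 6.66 ± 0.901, AA gave 2.78 ± 0.356 and AT gave 1.21 ± 0.116. The same order held on methylated DNA, with 22.3 ± 2.32, 16.1 ± 1.02, 9.40 ± 1.09, 3.72 ± 0.604 and 0.866 ± 0.0537. With CREB1 the CG centre gave 15.4 ± 0.820 and CA 3.16 ± 0.490, while TA, AA and AT lay at -0.109 ± 0.581, 0.740 ± 0.171 and -0.200 ± 0.00385. CREB1(A297V) bound the first pair, at 21.6 ± 3.47 and 11.8 ± 1.41, and stood at 1.25 ± 0.258, 1.28 ± 0.561 and 0.196 ± 0.280 for the A/T-only centres. On methylated DNA CREB1(A297V) gave 26.6 ± 2.54 and 15.6 ± 2.25, then 1.19 ± 0.531, 0.446 ± 0.0428 and 0.639 ± 0.432. The centres without a cytosine thus spanned 0.866 to 9.40 with CEBPB(V285A) and -0.200 to 1.28 with the CREB1 proteins. With CEBPB(V285A) TA was the highest of them on every array, and as the highest member it had to be so in the means. A GC centre (TTAGCTAA) gave 2.75 ± 0.178 and 3.57 ± 0.441 with CEBPB(V285A) on unmethylated and methylated DNA. It was higher with CREB1(A297V), at 6.33 ± 2.43 and 10.2 ± 1.41, and stood at -0.195 ± 0.190 with CREB1. Of the 3 A/T-only centres, TTAAATAA was higher with CEBPB(V285A) than with CREB1 by 2.04 ± 0.378 (limma, adjusted p = 0.00403), and TTAATTAA by 1.41 ± 0.274 (limma, adjusted p = 0.00551). Without CEBPB(V285A) unmethylated replicate 1 these differences were 1.79 and 1.33 and were no longer called, and without replicate 2 that of TTAATTAA was 1.49 and not called.

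Single-base changes of TTATATAA were read as well. Positions are counted from 1 at its 5′ end, and since it is a palindrome, each substitution stands for 2 equivalent ones. The 4 changes that stay within A and T (T1A, T2A, A3T and T4A) gave 1.91 to 2.78 with CEBPB(V285A) on unmethylated DNA and 1.44 to 3.72 on methylated DNA. All 4 had to lie below TTATATAA in both groups, since it was the highest member there. T4A changes the centre and is the AA centre given above. The 8 changes to G or C ranged from 0.243 to 15.9 on unmethylated DNA. The highest was T4C, the CA centre. T2G, which gives one end the TGA start of the CRE half-site (TGATATAA), stood at 6.57 ± 0.609, against 0.478 ± 0.162 with CREB1. A3G, which gives the TTG start of the C/EBP half-site (TTGTATAA), gave 4.23 ± 0.0177, and A3C gave 0.243 ± 0.0182. With CREB1(A297V) on unmethylated DNA, the same 12 variants ranged from 0.259 to 2.80 apart from T4C.

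Longer A runs went with lower scores for CEBPB(V285A). On unmethylated DNA the median was 2.03 ± 0.0590 over the 39 members whose longest run is 1 or 2, 1.34 ± 0.00644 over the 77 with 3 or 4, and 0.519 ± 0.0504 over the 20 with 5 to 8. The arrays did not overlap between these classes. On methylated DNA the medians were 2.06 ± 0.0887, 1.37 ± 0.194 and 0.987 ± 0.171. For the CREB1 proteins the classes lay closer: 1.01 ± 0.192, 1.24 ± 0.134 and 0.594 ± 0.270 with CREB1, and 1.62 ± 0.169, 1.70 ± 0.0253 and 1.42 ± 0.157 with CREB1(A297V). After methylation CREB1(A297V) gave 1.38 ± 0.183, 1.18 ± 0.0763 and 0.779 ± 0.212. Across the members, Spearman's rho between Z-score and run length was -0.597 and -0.606 on the 2 unmethylated CEBPB(V285A) arrays. It was -0.101 and -0.143 on the CREB1 arrays and -0.0599 and -0.116 on the unmethylated CREB1(A297V) arrays. The groups lay closer on methylated DNA, at -0.373 and -0.417 with CEBPB(V285A) and -0.195 and -0.239 with CREB1(A297V). Members overlap in sequence and share probes, so these correlations are descriptions.

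The count of TpA steps followed the run length, since long runs leave no room for steps. With CEBPB(V285A) on unmethylated DNA the median was 0.841 ± 0.0163 over the 49 members with 0 or 1 step, 1.66 ± 0.167 over the 66 with 2, and 2.08 ± 0.0373 over the 21 with 3 or 4. Both properties were then separated where the classes allow it. Among members with 2 steps, the median fell from 1.98 ± 0.0727 (run of 2, 20 members) through 1.61 ± 0.227 (run of 3, 33 members) to 0.867 ± 0.0303 (run of 4, 11 members). Among members with a run of 2, it was 1.98 ± 0.0727 with 2 steps and 2.17 ± 0.0544 with 3 (16 members). Among members with a run of 3 it was 1.27 ± 0.0240 with 1 step (13 members), 1.61 ± 0.227 with 2, and 1.40 ± 0.0837 with 3, a class of 3 members. Among members with 1 step, runs of 3, 4 (16 members) and 5 (9 members) gave 1.27 ± 0.0240, 0.989 ± 0.0428 and 0.860 ± 0.153. From a run of 2 upwards, the medians fell with the run length at 1 and at 2 steps, and at a fixed run length they differed with the steps as well, without a steady order at a run of 3.

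Alternation alone gave no high score. ATATATAT, with 3 TpA steps, stood at 0.589 ± 0.197 with CEBPB(V285A) on unmethylated DNA and between 0.261 and 0.950 over all 5 groups. TATATATA, the only member with 4 steps, stood at 1.20 ± 0.222 and between 0.735 and 1.95 over the groups. Members were also split by a short shared sequence: the 31 members that hold ATAAT on either strand had a median of 2.16 ± 0.0138 with CEBPB(V285A) on unmethylated DNA, against 1.24 ± 0.0152 for the other 105. On methylated DNA these medians were 2.24 ± 0.0965 and 1.26 ± 0.173. With CREB1 they were 1.26 ± 0.0766 and 1.08 ± 0.138. ATAAT contains ATAA, the complement of TTAT, which is the PAR half-site with its last base changed. The 70 members with TTAT had a median of 1.81 ± 0.0887 with CEBPB(V285A) on unmethylated DNA and the other 66 had 0.996 ± 0.0723. With CREB1 these medians also differed, at 1.29 ± 0.113 and 0.871 ± 0.227. With CREB1(A297V) on unmethylated DNA they stood at 1.59 ± 0.109 and 1.57 ± 0.110. These cores overlap each other and were read from the same members, so they are descriptions.

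The TATA-box forms, which TATA-binding protein recognises at promoters, were not among the highest members with CEBPB(V285A) on unmethylated DNA, and spread widely with CREB1. With CEBPB(V285A) on unmethylated DNA, TATAAAAA, TATAAATA, TATATAAA and TATATATA stood at 1.19 ± 0.174, 1.81 ± 0.416, 1.22 ± 0.0120 and 1.20 ± 0.222. With CREB1 they stood at 1.34 ± 0.0623, 2.87 ± 0.189, 0.284 ± 1.08 and 1.11 ± 1.02. TATAAATA was the highest of them with CREB1, at 3.00 and 2.73 on the 2 arrays, and ranked 7 of the members there.

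The groups differed in which members they ranked high. Over the members, the Pearson correlation between replicates was 0.854 with CREB1. It was 0.922 (unmethylated) and 0.956 (methylated) with CEBPB(V285A), then 0.763 and 0.885 with CREB1(A297V). Unmethylated against methylated CEBPB(V285A) arrays correlated at 0.771 to 0.865, and CREB1 against CREB1(A297V), which share an identifier, at 0.632 to 0.765. CREB1 against CEBPB(V285A) on unmethylated DNA, which differ in identifier, gave 0.259 to 0.354. The methylated mutants, which share an identifier but not a layout, gave 0.285 to 0.385. Unmethylated against methylated CREB1(A297V), which differ in identifier, gave 0.402 to 0.536, lower than CREB1 against CREB1(A297V). The parts of protein, identifier and layout in these values were not tested. All arrays read the same probes and the same overlapping 8-mers, so these values are descriptions.

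With CREB1 the highest members were AAAAATAA (3.10 and 3.44), AATTTAAA (3.61 and 2.65), AAATTTAT (3.17 and 3.05), TATTAATA (3.80 and 2.22) and AATATATT (3.24 and 2.68). The lowest were AAAATTTT (-0.883 and -1.18), AATTTTAT (-0.945 and -0.358) and AATTAAAT (-0.0532 and -0.854). They were chosen by the mean of these arrays, so the gap between the highest and the lowest is a description. With CREB1(A297V) on unmethylated DNA, AAATATTT stood at 3.47 and 4.92, AATTTAAA at 4.46 and 3.87 and AATATATT at 5.11 and 2.91. AATTTAAA and AATATATT were thus among the 5 highest members with both CREB1 proteins on unmethylated DNA, in arrays that share an identifier. On methylated DNA CREB1(A297V) again gave AAATATTT its highest member score, 3.99 and 4.00, but AATTTAAA ranked 51 and AATATATT 37 of the members there.

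The homopolymer AAAAAAAA separated CREB1 from CEBPB(V285A) most in the downward direction. Its Z-scores were 2.42 and 2.89 with CREB1, -0.0658 and -0.408 with CEBPB(V285A), and 2.24 and 1.66 with CREB1(A297V) on unmethylated DNA. On methylated DNA they were 0.898 and 0.413 with CEBPB(V285A) and -0.258 and 0.236 with CREB1(A297V). Both CREB1 proteins lay above CEBPB(V285A) on unmethylated DNA, and all 4 methylated arrays lay below them. In signal it stood at 1.33 times the array median with CREB1. CEBPB(V285A) minus CREB1 was -2.89 ± 0.321 (limma, adjusted p = 3.59e-05). The sign of this difference turned in 2 alternative scorings, the authors' deposited scores and the probes without CG.

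CEBPB(V285A) against CREB1 on unmethylated DNA is the comparison named in the title of the series, which likens the binding of the mutant to that of CREB1. Among the members 25 differed: 23 were higher with CEBPB(V285A) and 2 lower. Over all 8-mers 6.2% were called, 3.67% higher and 2.53% lower, against 16.9% and 1.47% of the members. At an unadjusted p below 0.05 there were 40 higher and 18 lower members. The median difference was 0.210 over the members and 0.00563 over all 8-mers. It was 0.417 without CREB1 unmethylated replicate 1, and without replicate 2 it was 0.0311, where all 8-mers gave 0.0407. After normexp background correction it turned to -0.0635 over the members, where the median over all 8-mers shifted to -0.112, and the split of calls became 13 higher and 8 lower. Without the spatial correction it was 7 higher and 2 lower, and on probes without CG 19 higher and 8 lower.

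After TTATATAA, the largest rises were ATATAATA (1.15 and 1.34 with CREB1, 2.88 and 3.89 with CEBPB(V285A)), TTAAATAA, TAATATTA (0.247 and 0.679 against 2.22 and 2.67) and ATTATATA (0.494 and 0.0570 against 2.11 and 2.26). All of these have a longest run of 2 or 3 and 2 or 3 TpA steps, a common form among the members. With 2 steps, 20 members have a run of 2 and 33 a run of 3, and with 3 steps 16 and 3. By run length, 15 of 39 members with a run of 1 or 2 were higher with CEBPB(V285A), and 8 of 77 with a run of 3 or 4. Of the 20 members with a run of 5 to 8, the 2 that were called were the falls, AAAAAAAA and AAAAATAA (3.27 ± 0.246 against 1.58 ± 0.121). The call of AAAAATAA was lost without either unmethylated CEBPB(V285A) array, with differences of -1.77 and -1.60. In that class 1 member was higher and 5 were lower at an unadjusted p below 0.05. The calls depended on single arrays: without CEBPB(V285A) unmethylated replicate 1 or 2 there were 9 and 8, and without CREB1(A297V) unmethylated replicate 1 or 2 there were 38 each.

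CREB1(A297V) against CREB1 on unmethylated DNA, compared within a single identifier, gave 29 called members, all of them higher with CREB1(A297V). Over all 8-mers 18.9% were called, 8.13% higher and 10.8% lower, while 21.3% of the members were higher. At an unadjusted p below 0.05 limma gave 58 higher members and 1 lower, and without a variance trend it called 36, all higher. The median difference was 0.586 over the members and 0.0221 over all 8-mers, and it was above 0 in every scoring tried. Without the spatial correction the split was 11 higher and 2 lower. In the Z-scores the share called in all was thus close to that over all 8-mers, while the direction was one-sided among the members and mixed over all 8-mers. The other 20213 8-mers without CG also leaned upward, with 11.3% higher, 4.26% lower and a median difference of 0.153. An upward lean was thus not particular to the members. On the centred log2 scale, without division by the spread, 7 members were called, all higher, where 10.9% of all 8-mers were called. The median difference there was 0.0395 over the members and 0.00776 over all 8-mers. The unmethylated CREB1(A297V) arrays have the narrowest range, and the part of this in the result was not tested.

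The largest rises were TAAATTAA (1.37 and 1.02 with CREB1, 2.90 and 3.54 with CREB1(A297V)), AAAAATTT (0.274 and -0.0859 against 2.05 and 2.00), ATATTTTA (1.22 and 0.738 against 2.80 and 2.98), AAAATTTT (-0.883 and -1.18 against 0.718 and 0.924) and AAATATTT. Being chosen by size, they are a description, and the sign turned for AAATATTT on foreground over background and for ATATTTTA on probes without CG. By run length, 10 of 20 members with a run of 5 to 8 were higher, 15 of 77 with 3 or 4, and 4 of 39 with 1 or 2. The comparison shares its CREB1 arrays with the one before it. Without CREB1 unmethylated replicate 2 the count was 12. On probes without CG 3 of 78 scored members were called, all higher.

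Methylation changed few Z-scores of members with CEBPB(V285A), although most of their probes hold a CG elsewhere. On methylated DNA 5 members rose, 3.68%, beside 7.57% of all 8-mers called, 3.84% higher and 3.73% lower, so the share that rose was near the background and the share called in all was below it. On the centred log2 scale 58 members were called, 56 higher and 2 lower, where 30.5% of all 8-mers were called. At an unadjusted p below 0.05 limma gave 23 higher and 8 lower members, and without a variance trend it called 6 higher and 2 lower. TTATATAA rose by 2.74 ± 0.588 (limma, adjusted p = 0.0105), a call lost without CEBPB(V285A) unmethylated replicate 2 (2.10) or methylated replicate 1 (1.96). On the 7 of its 17 probes that hold no CG, its Z-score was 7.06 and 8.08 on unmethylated and 8.30 and 6.38 on methylated DNA, so the arrays of the 2 groups overlapped there. The other 4 were AATAAAAA (0.130 and 0.476, then 1.93 and 1.52), AATTTTAA (1.55 and 1.25, then 2.56 and 2.73), ATTATATA (2.11 and 2.26, then 3.69 and 3.04) and ATTTTAAA (0.864 and 1.06, then 2.30 and 1.89). On probes without CG the differences of TTATATAA, ATTATATA and ATTTTAAA changed sign. The median difference was 0.138 over the members. Leaving out a single array moved the count between 0 and 14, with 0 or 1 without any 1 of the 4 CEBPB(V285A) arrays, 2 without either methylated CREB1(A297V) array, 8 without either CREB1 array, and 14 and 13 without CREB1(A297V) unmethylated replicate 1 or 2. Methylation and array identifier cannot be told apart here.

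With CREB1(A297V), 27 members fell and 1 rose on methylated DNA, a direction that turned to more rises than falls on the centred log2 scale and on probes without CG. Over all 8-mers 21.6% were called, 11.1% lower and 10.4% higher, so the share of members called, 20.6%, lay near the background, while 19.9% of the members were lower. The median difference was -0.366 over the members, but 0.0292 on the centred log2 scale without division by the spread, with 17 higher and 11 lower, and 0.00954 on probes without CG, with 9 higher and 8 lower of 78. In the authors' deposited scores 3 were higher and 7 lower. On all probes, the same 78 members gave 0 higher and 19 lower. The Z-score divides by each array's spread, and the unmethylated CREB1(A297V) arrays are those with the narrowest range. The part of this in the result was not tested. At an unadjusted p below 0.05 limma gave 4 higher and 46 lower members.

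The largest falls were AATATAAA (3.26 and 3.21, then 0.484 and 0.302), AATTTAAA (4.46 and 3.87, then 1.35 and 1.34), AATTAAAA (3.18 and 3.49, then 0.683 and 0.973), AATATATT (5.11 and 2.91, then 1.78 and 1.38) and TATTTTAA (2.69 and 2.28, then 0.243 and 0.174). These too were chosen by size, and the call of AATATATT was lost without CREB1(A297V) methylated replicate 2 (-2.23). The largest, AATATAAA, fell by 2.84 ± 0.330 (limma, adjusted p = 2.43e-05). AAAATTTT was the member that rose, from 0.718 and 0.924 to 1.81 and 2.02. Layout, identifier and methylation cannot be told apart in this comparison. Without CREB1(A297V) methylated replicate 1 or 2 the count of calls was 17 and 14.

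The methylated groups, which share an identifier but not a layout, differed at 24 members: 21 were higher with CEBPB(V285A) and 3 lower. Over all 8-mers 12.2% were called, 6.75% higher and 5.49% lower, against 15.4% and 2.21% of the members. After TTATATAA the largest differences were TTAAATAA (0.476 and 0.416 with CREB1(A297V), 4.15 and 3.29 with CEBPB(V285A)), ATATAATA (0.925 and 1.15 against 4.17 and 4.16), ATTATATA (0.621 and 0.849 against 3.69 and 3.04) and TTATAAAA (1.05 and 1.03 against 3.36 and 2.82). ATATAATA, TTAAATAA and ATTATATA were also among the 5 largest rises over CREB1 on unmethylated DNA, in arrays that the 2 comparisons do not share. The 3 falls were AAAAATTT (2.43 and 2.34 against 1.09 and 0.908), TAAATTTA (1.29 and 1.38 against 0.0667 and 0.0621) and AAATTATT (2.06 and 1.99 against 1.02 and 0.682). By run length, 12 of 39 members with a run of 1 or 2 were higher, and 9 of 77 with 3 or 4. On the centred log2 scale 66 members were higher and 5 lower, where 30.6% of all 8-mers were called. With quantile normalization the split was 17 higher and 5 lower, and on probes without CG 16 higher and 8 lower. The count ran from 11 to 33 when single arrays were left out. It was 11 and 14 without CEBPB(V285A) methylated replicate 1 or 2, and 13 and 11 without CREB1(A297V) methylated replicate 1 or 2.

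The response to methylation was last compared between the mutants, by the limma interaction term. It was more positive with CEBPB(V285A) at 10 members and more negative at 0. Over all 8-mers 3.07% were called, 1.42% in this direction and 1.64% in the other, against 7.35% and 0% of the members. At an unadjusted p below 0.05 there were 39 members in this direction and 2 in the other, and the fit without a variance trend called 13, all in this direction. Of the 10, 4 have a run of 5 or more and 6 a run of 3 or 4. At TTATATAA the difference was 2.79 ± 0.832 and was not called (limma, adjusted p = 0.0681). On foreground over background there were 0 calls in this direction and 1 in the other, while the median difference was 0.633, against 0.533 in the Z-scores used here. The comparison carries the identifier and layout differences of both methylation comparisons, and its calls rest on few arrays: there were 0 without CEBPB(V285A) unmethylated or methylated replicate 1 or without CREB1(A297V) methylated replicate 1, 1 or 2 without the second array of these groups, and 21 without CREB1(A297V) unmethylated replicate 2.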

How the data were processed

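Binding was measured on 10 arrays. The authors deposited, per the file headers, the median signal intensity and median background intensity of each spot, linear and not subtracted. They also deposited a matrix of 8-mer scores, whose making is not given in the sources used here beyond the array design, and it served as an alternative. The log2 spot signal, less the median over 15 by 15 spots, was taken as the median over at least 8 probes per 8-mer and scaled by the median and 1.4826 times the median absolute deviation of each array. Groups were compared with limma 3.58.1 in R 4.3.3 (lmFit, eBayes with a variance trend) on all 10 arrays, with 5 residual degrees of freedom, two-sided, adjusted by Benjamini-Hochberg over 32896 8-mers, in 6 comparisons. Scripts ran in Python 3.11.15 and were tested on simulated data. Probe subsets needed 5 probes per 8-mer, and normexp used an offset of 50.

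The members, classes, cores and lists were chosen with earlier results of these data known. The 8-mers named are a panel made by pattern (homopolymer, A and T blocks, alternating, TATA-box and PAR forms), the 5 highest and 3 lowest members of each group, and the 5 largest called rises and falls of each comparison. Not every one of them is printed. Alternatives were other scores, background corrections, scalings, probe subsets, fits and leaving out each array. The arrays were not paired by replicate number. Deviations of same-numbered arrays correlated between -0.213 and 0.333. The highest value was that of CREB1 and CREB1(A297V) on unmethylated DNA, which share an identifier. These values do not settle whether the numbers pair arrays.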

Additional observations from a re-analysis of the deposited data

Results flagged for a closer look

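The response to methylation (methylated minus unmethylated) differed between CEBPB(V285A) and CREB1(A297V) at 10 members, by the limma interaction term. The median over the members was 0.533. After normexp background correction it was 0.907, where the median of all 8-mers shifted to 0.172.

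AAAAAAAA differed by 2.85 (adjusted p = 0.00652): it went from -0.237 ± 0.242 to 0.655 ± 0.343 with CEBPB(V285A) and from 1.95 ± 0.413 to -0.0110 ± 0.350 with CREB1(A297V). AAATTAAA differed by 2.26, ATTTTAAA by 2.16 and ATAAAAAA by 2.14. The differences were 2.09 at ATATAAAT, 2.07 at TAAAAAAA, 2.06 at TAAATTAA, 1.94 at ATATTTTA, 1.89 at AATATAAA and 1.56 at TTAAAAAA, with adjusted p-values from 0.00652 to 0.0473 over the 10. CREB1(A297V) was lower on methylated DNA at each of the 10, by 0.869 to 2.84. CEBPB(V285A) was higher at 8 of them, by 0.165 to 1.13, and lower at ATATTTTA (-0.161) and AATATAAA (-0.953). The sign turned at TAAATTAA on probes without CG (-1.67) and in the authors' deposited scores (-0.205), and at ATTTTAAA on probes without CG (-0.121). All 10 calls were lost without CEBPB(V285A) unmethylated replicate 1, CEBPB(V285A) methylated replicate 1 or CREB1(A297V) methylated replicate 1, where the count was 0. At AAAAAAAA the difference was then 3.02, 2.61 and 2.61.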

How the results depend on the processing

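Counts of called members are given in the order of the comparisons: CREB1 with CEBPB(V285A) (25), CREB1 with its mutant CREB1(A297V) (29), methylation with CEBPB(V285A) (5), methylation with CREB1(A297V) (28), the methylated mutants (24) and the interaction (10). The causes of these shifts were not tested. The authors' deposited scores gave 13, 9, 7, 10, 21 and 2, normexp 21, 26, 3, 42, 22 and 12, foreground over background 10, 11, 3, 18, 15 and 1, and no spatial correction 9, 13, 1, 18, 12 and 1. Centred log2 values gave 44, 7, 58, 28, 71 and 14, and quantile normalization 22, 49, 4, 44, 22 and 18. Probes without CG (78 members scored) gave 27, 3, 3, 17, 24 and 5. The same 8-mers on all probes, an alternative chosen after seeing the data, gave 25, 11, 4, 19, 15 and 6. Probes without a half-site (134 members) gave 14, 9, 13, 25, 15 and 1, at least 25 probes (120 members) 21, 26, 4, 26, 22 and 11, no variance trend 30, 36, 8, 34, 28 and 13, and the compared groups alone 24, 8, 28, 21, 50 and 15.

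Leaving out single arrays gave 8 to 38, 12 to 37, 0 to 14, 14 to 35, 11 to 33 and 0 to 21. Without CEBPB(V285A) methylated replicate 1 the median methylation response of that protein turned to -0.0176. With the replicate number as a block, although a pairing by number is not established, the counts were 27, 31, 5, 30, 26 and 14. No call of a named 8-mer changed.

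Of 1442 values of the 66 named differences under the alternatives, 1071 kept direction and call, 347 kept the direction but were no longer called, and 24 changed sign, 14 of them on probes without CG. For CEBPB(V285A) minus CREB1, AAAAAAAA was 0.0801 in the authors' scores and 0.353 on probes without CG. For CREB1(A297V) minus CREB1, the authors' scores gave ATTTTTTA -0.530 and TATTTTAA -0.528, probes without CG gave ATATTTTA -0.142 and TATTTTAA -0.247, foreground over background gave AAATATTT -0.449 and ATTTTTTA -0.202, and normexp gave ATTTTTTA -0.0144. The methylation response of CEBPB(V285A) on probes without CG was -0.988 at ATTATATA, -0.0986 at ATTTTAAA and -0.230 at TTATATAA. That of CREB1(A297V) was 0.0896 at AAAAAAAA, 0.0108 at AAATTAAA, 0.0226 at ATTTTAAA and 2.41 at TAAATTAA on probes without CG, 0.139 at AAAAAAAA on foreground over background, and 0.0706 at ATTTTAAA and 0.539 at TAAATTAA in the authors' scores. Between the methylated mutants, probes without CG gave 0.0132 at AAAAATTT and -1.05 at ATTTTAAA. The interaction was -0.121 at ATTTTAAA and -1.67 at TAAATTAA on probes without CG, and -0.205 at TAAATTAA in the authors' scores.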
